A study of Mus musculus with 9 samples.

Results

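The Wnt signalling genes described here are the Wnt ligands, their Frizzled receptors and the co-receptors Lrp5 and Lrp6. Axin2 and the secreted inhibitors with an Sfrp, Dkk or Wif symbol are included too. Frzb, a secreted Frizzled-related protein, has another symbol and is given with the other pathway genes. The genes of the set were chosen by a rule on gene symbols of the array platform, though with earlier results of these data known. Each was represented by its probe set of highest mean over all 9 arrays. There were 41 such genes (19 ligands, 10 Frizzleds, 2 co-receptors, 9 inhibitors and Axin2), measured by 79 probe sets, among 18193 genes in all. The arrays came from 3 mice at postnatal day 6, and each animal gave 1 piece of spinal cord from the dorsal, 1 from the intermediate and 1 from the ventral region. Every animal carried the GAD65-GFP genotype, a reporter in which the GAD65 promoter drives green fluorescent protein, and no other genotype was analysed here. The labels mention no cell sorting, so the values are those of tissue pieces. The labels of the 3 groups differ only by region, and the comparisons ask how these genes were distributed along the dorsoventral axis.

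Wnt proteins are secreted, lipid-modified ligands. Binding to a Frizzled receptor together with Lrp5 or Lrp6 stabilises beta-catenin, which acts on transcription with TCF and LEF proteins, while other Frizzled complexes act on cell polarity and the cytoskeleton. In the embryonic spinal cord, Wnt1 and Wnt3a from the roof plate act on dorsal progenitors, and Wnt and Frizzled proteins also steer growing axons along the cord.

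Values are the authors' deposited probe set values, read as log2 because they ran no higher than 16.27, so every fold change rests on that reading. The lowest value of the table, 2.15, is called the floor here, and each array had 36.0% to 36.3% of its probe sets within 0.01 of it. Array medians ran from 3.66 to 3.75. A gene was called at a limma adjusted p under 0.05 over all 13959 genes tested, in a fit with animal as a block. Values after ± are SE for a difference and SD for a mean of 3 arrays. In such pieces fewer cells of a type and less RNA per cell cannot be told apart.

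Of the 41 genes, 11 were at that floor on every array: Wnt1, Wnt2, Wnt2b, Wnt3a, Wnt9b, Wnt10a, Wnt10b, Wnt16, Lrp5, Dkk1 and Dkk4. The roof plate ligands Wnt1 and Wnt3a were thus not measured above the floor in any of these postnatal pieces. The low-value filter left 33 of the 41 genes to be tested, and 30 genes were off the floor on at least 1 array. Of those 30, 17 differed between at least 1 pair of regions, and each of the 17 differed between dorsal and ventral. The other 13 (Wnt3, Wnt6, Wnt8a, Wnt8b, Wnt9a, Wnt11, Fzd4, Fzd8, Fzd10, Dkk2, Sfrp2, Sfrp4 and Sfrp5) passed no pairwise test. The largest of their differences was that of Fzd10, at 0.58 ± 0.22 for dorsal minus ventral (adjusted p = 0.0807).

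In the dorsal pieces 7 Wnt genes were higher and 10 lower than in the ventral pieces. That is 51.5% of those tested, where 52.8% of all genes tested were called (24.5% higher and 28.2% lower). Between dorsal and intermediate, 5 Wnt genes were higher and 3 lower, against 30.1% of all genes called (14.2% higher, 15.9% lower). Between intermediate and ventral, 1 was higher and 9 lower, against 48.2% of all genes called (23.4% higher, 24.9% lower). The moderated F test over regions called 16 of 33, or 48.5%, against 58% of all genes. As a share of genes called in either direction, the family was near or below the background in each comparison of this fit. For dorsal minus intermediate, dorsal minus ventral and the F test this depended on the setting. With the filter at the 50th percentile, 19 of 22 were called for dorsal minus ventral, against 66.6% of all genes. The F test then called 18 of 22, against 73.7%. Dorsal minus ventral was also slightly above with arrays centred (19 of 33, against 55.2%) and without the filter (16 of 41, against 37.5%). For dorsal minus intermediate, the family was above the background without animal 3 (6 of 33 called, against 10.5% of all genes) and without animal 1 (6 of 33, against 13.6%). It was also above in a fit of only those regions' arrays (7 of 33, against 15.1%).

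The patterns over 3 regions fell into few kinds. Axin2, Fzd3, Wif1, Wnt4 and Wnt5a were higher in dorsal than in both other regions, a pattern of 9.99% of all genes. Fzd1, Fzd5, Fzd6, Fzd7, Fzd9, Wnt5b and Wnt7a were higher in ventral than in both others, a pattern of 20.2% of all genes. No Wnt gene was highest in the intermediate pieces by the limma tests, where 6.25% of all genes were. At an unadjusted p under 0.05 the count was also 0, where 1187 of the 13959 genes tested were. Fzd1, Fzd7 and Fzd9 increased at each step towards ventral (5.12% of all genes) and so were also lowest in dorsal (10.3% of all genes). Wif1 and Wnt5a were lowest in intermediate (4.2% of all genes), and Sfrp1 was lowest in ventral (17.9% of all genes).

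**Figure D1:**
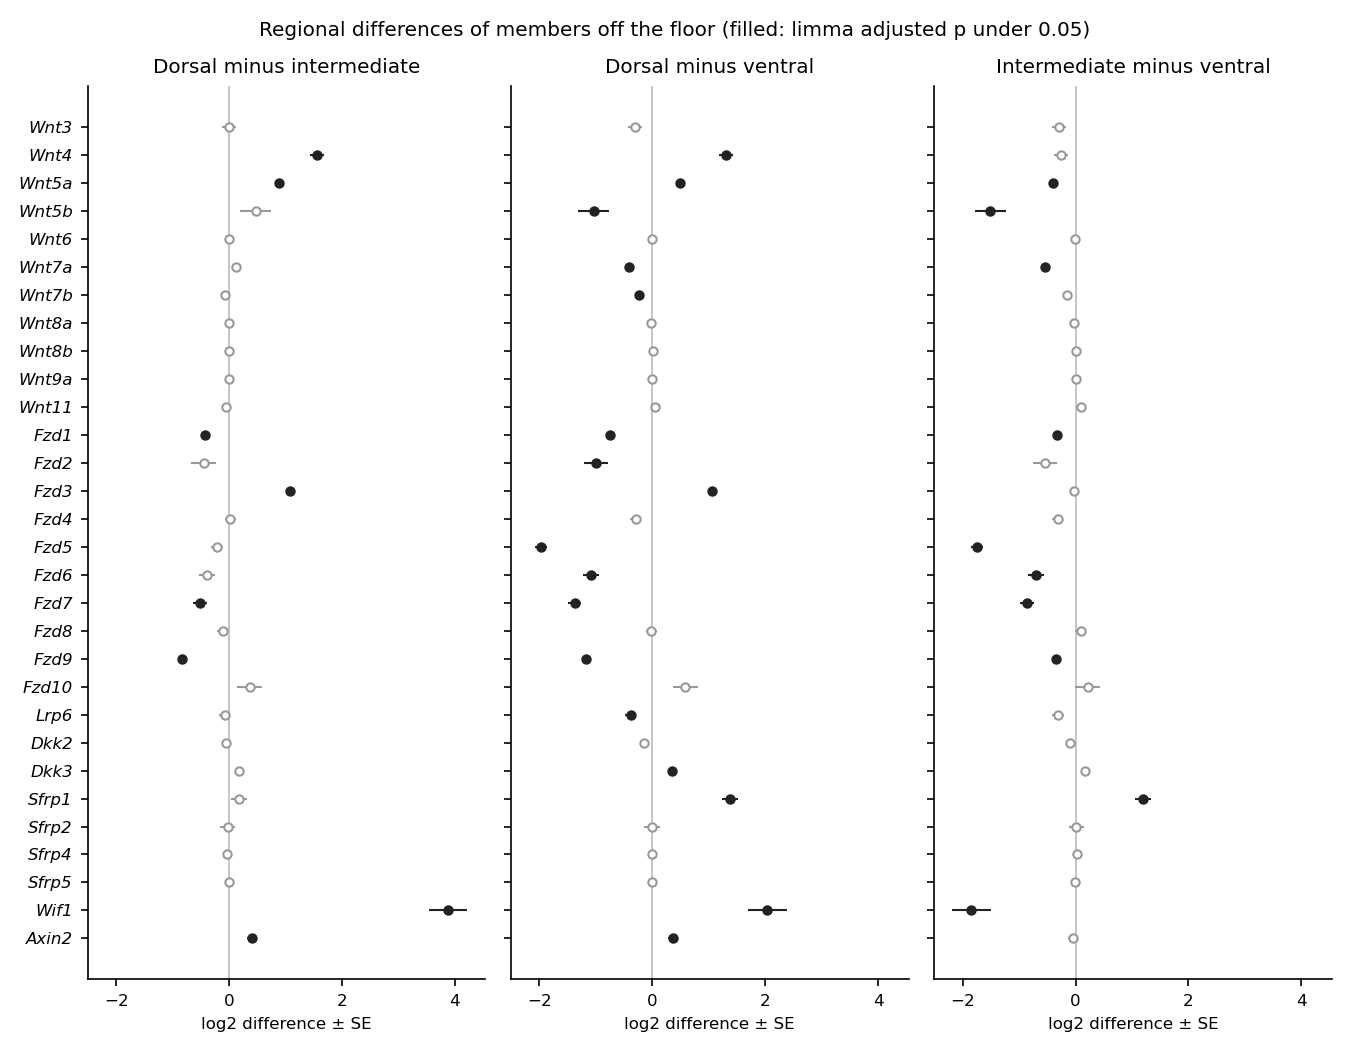
Differences between regions for the 30 Wnt genes off the floor on at least 1 array, one row per gene and one panel per comparison. The horizontal axis is the log2 difference, points are limma estimates with SE bars, and filled points have an adjusted p under 0.05. Most filled Frizzled points lie left of 0 in the dorsal minus ventral panel, with Fzd3 on the right, and the widest difference is that of Wif1 between dorsal and intermediate.

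Among the 19 ligands, 13 were tested. In dorsal pieces 2 were higher than in intermediate, and against ventral 2 were higher and 3 lower. In intermediate pieces 3 were lower than in ventral and 0 higher. The ligands called either way were 15.4% for dorsal minus intermediate, 38.5% for dorsal minus ventral and 23.1% for intermediate minus ventral. Over all genes these shares were higher, at 30.1%, 52.8% and 48.2%. The median difference of the ligands was 0 for dorsal minus ventral, with -0.00024 over all genes tested.

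Wnt4, a ligand known in the embryonic cord for attracting commissural axons towards the brain, was highest in the dorsal pieces. Its values were 5.23, 5.09 and 5.23 in dorsal pieces, 3.77, 3.63 and 3.47 in intermediate pieces and 3.77, 4.09 and 3.79 in ventral pieces. The dorsal arrays stood above all 6 others, while intermediate and ventral met at their edge. The difference was 1.56 ± 0.12 for dorsal minus intermediate, a 2.95-fold difference (adjusted p = 0.00149 by limma). It was 1.30 ± 0.12 for dorsal minus ventral, or 2.46-fold (adjusted p = 0.000834). Both differences had the same sign in 3 of 3 animals, and a second, dimmer Wnt4 probe set was also higher in dorsal, by 0.61 and 0.65 (adjusted p = 0.0073 and 0.00244 over all probe sets tested). Intermediate and ventral differed by -0.26 ± 0.12 (adjusted p = 0.15).

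Wnt5a, a ligand that signals through Ror2 and mostly without beta-catenin, was also highest in dorsal. It had 9.72, 9.64 and 9.57 in dorsal pieces, 8.79, 8.97 and 8.53 in intermediate pieces and 9.14, 9.33 and 8.99 in ventral pieces. No region overlapped another, with intermediate the lowest. Dorsal exceeded intermediate by 0.88 ± 0.08 (adjusted p = 0.00196) and ventral by 0.49 ± 0.08 (adjusted p = 0.00475), and intermediate was lower than ventral, with a difference of -0.39 ± 0.08 (adjusted p = 0.0118). The dorsal minus intermediate call was lost without animal 1 (adjusted p = 0.0526) and the dorsal minus ventral call without animal 1 or animal 3 (adjusted p = 0.0785 and 0.0557). The intermediate minus ventral call was lost without animal 1 or 3 (adjusted p = 0.103 and 0.0933), without the intermediate array of animal 1 (0.0532) without the ventral array of animal 2 (0.0548) and on the Wnt5a probe set of highest variance (0.186). Of the other Wnt5a probe sets, one gave the same calls against dorsal (0.95 and 0.68, adjusted p = 0.0129 and 0.0179) and a brighter one gave none (0.51 and 0.27, adjusted p = 0.117 and 0.301).

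Wnt7a, a ligand known for synapse formation and, with Wnt7b, for vessel growth into the central nervous system, was highest in ventral. It had 6.26, 6.26 and 6.24 in dorsal pieces, 6.13, 6.13 and 6.11 in intermediate pieces and 6.57, 6.73 and 6.71 in ventral pieces. The ventral arrays stood above all others, and dorsal stood above intermediate without passing the test (0.13 ± 0.04, adjusted p = 0.0728). Dorsal was lower than ventral, with a difference of -0.42 ± 0.04 (1.34-fold, adjusted p = 0.000893) and intermediate was lower than ventral, with a difference of -0.55 ± 0.04 (1.46-fold, adjusted p = 0.000572). A second Wnt7a probe set of similar brightness did not show this, with 0.06 for dorsal minus ventral and 0.12 for intermediate minus ventral (adjusted p = 0.489 and 0.187 over all probe sets tested). The direction of Wnt7a thus differed between its probe sets. Wnt7b was lower in dorsal than in ventral, with a difference of -0.23 ± 0.06 (adjusted p = 0.0217), with ranges that met. That call was lost without animal 2 or 3 (adjusted p = 0.153 and 0.135) and without any single dorsal array or the ventral array of animal 2 or 3 (adjusted p between 0.055 and 0.0856).

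Wnt5b, the close relative of Wnt5a, was measured on a probe set type that can cross-match related sequences. It had 4.68, 4.68 and 5.03 in dorsal pieces, 3.73, 4.56 and 4.68 in intermediate pieces and 6.08, 5.69 and 5.73 in ventral pieces. Ventral stood above the others, and dorsal and intermediate overlapped. Dorsal was lower than ventral, with a difference of -1.04 ± 0.28 (adjusted p = 0.0307), a call lost without animal 2 or 3 (adjusted p = 0.157 and 0.121), without the filter on dim genes (0.053), and without any dorsal array, the intermediate array of animal 3 or the ventral array of animal 1 or 2 (between 0.0525 and 0.111). Intermediate was lower than ventral, with a difference of -1.51 ± 0.28 (adjusted p = 0.00982), which was lost without animal 2 or 3 (0.0707 and 0.0715) and in a fit of only those regions' arrays (0.0678). A second Wnt5b probe set gave -0.06 for dorsal minus ventral and -0.25 for intermediate minus ventral (adjusted p = 0.589 and 0.0667), neither of them called. The regional differences of Wnt5a and Wnt5b are thus opposite in sign for dorsal minus ventral on the probe sets used.

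**Figure D2:**
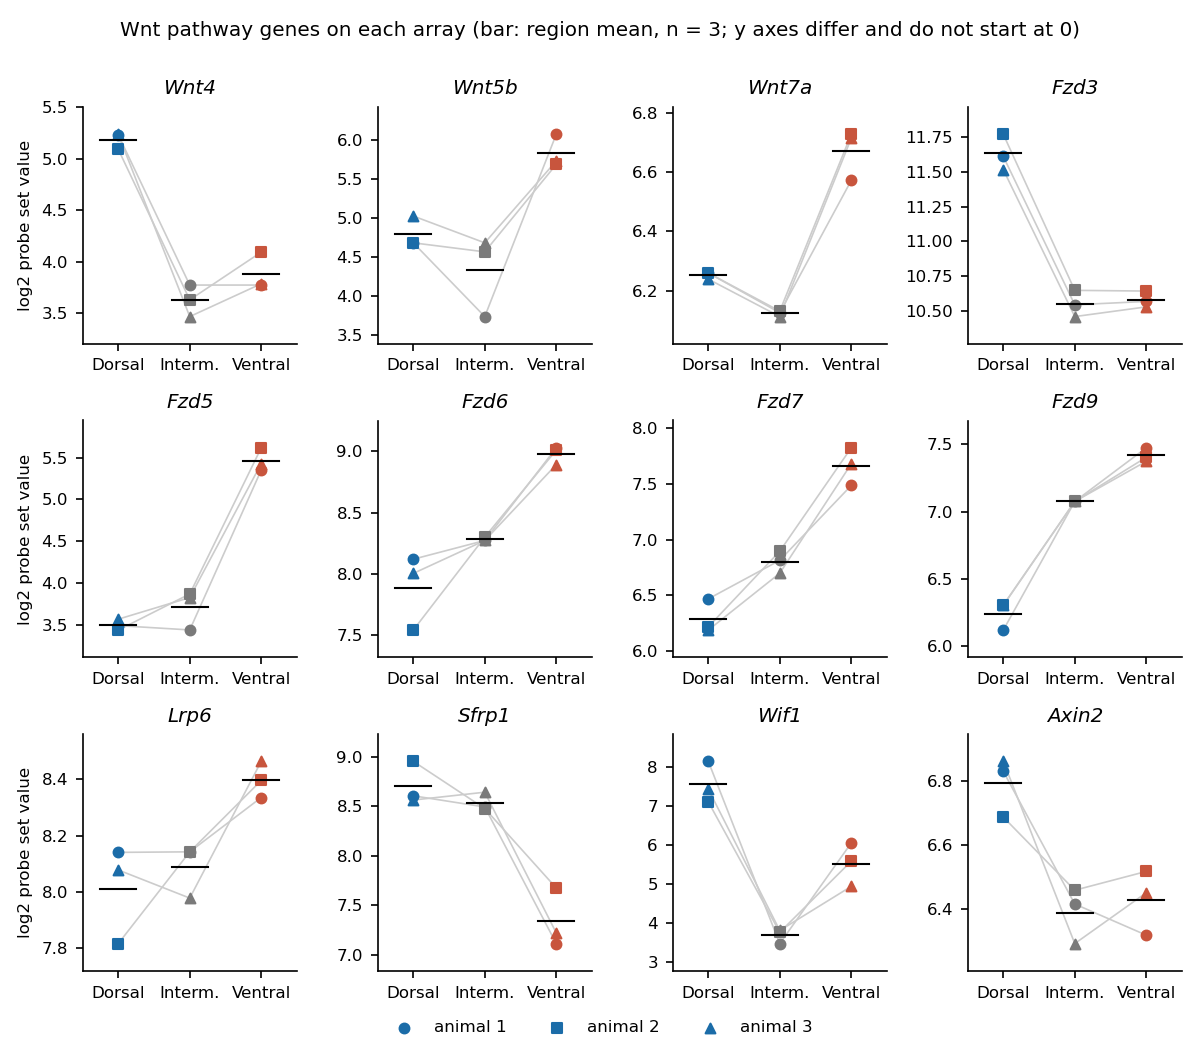
Log2 probe set values of 12 of the Wnt genes described array by array, 1 panel per gene. Wnt5a and Fzd1 are not drawn. Regions are on the horizontal axis, with a symbol per animal joined by lines and a bar at the mean of 3 arrays. Wnt4, Fzd3, Wif1 and Axin2 stand highest in dorsal pieces, Fzd5, Fzd6, Fzd7 and Fzd9 highest in ventral pieces, and Sfrp1 lowest in ventral pieces.

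The Frizzleds, the membrane-spanning receptors of Wnt proteins, were called lower in dorsal than in ventral pieces for 6 of 10 genes. All 10 were off the floor and tested, and 7 were called between these regions: 6 were lower in dorsal (Fzd1, Fzd2, Fzd5, Fzd6, Fzd7 and Fzd9), 1 was higher (Fzd3) and 3 were not called (Fzd4, Fzd8 and Fzd10). Over all genes, 28.2% were lower, 24.5% higher and 52.8% called either way. Their median difference was -0.88, with -0.00024 over all genes. Leaving out any 1 array or animal left between 5 and 7 of them lower and 1 or 2 higher. Between dorsal and intermediate 3 were lower and 1 higher (median -0.30), and between intermediate and ventral 5 were lower and 0 higher (median -0.33). Over all genes, 15.9% were lower and 14.2% higher in dorsal than in intermediate. In intermediate against ventral, 24.9% of all genes were lower and 23.4% higher. The astrocyte, oligodendrocyte and vascular marker lists had a ventral excess too, and their values are given with the marker lists.

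Fzd5, a receptor known mainly from eye and gut development, had the largest dorsoventral difference of the receptors. It had 3.49, 3.44 and 3.57 in dorsal pieces, 3.44, 3.87 and 3.83 in intermediate pieces and 5.35, 5.62 and 5.43 in ventral pieces. Dorsal and intermediate overlapped, and all 3 ventral arrays stood above both. The dorsal pieces were lower than ventral, with a difference of -1.96 ± 0.11, or 3.9-fold (adjusted p = 0.000169), and intermediate was lower than ventral, with a difference of -1.75 ± 0.11, or 3.37-fold (adjusted p = 0.00038). Dorsal and intermediate differed by -0.21 ± 0.11 (adjusted p = 0.211).

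Fzd7, Fzd9 and Fzd1 were graded, lowest in dorsal and highest in ventral. Fzd7, known from stem and progenitor cells, had 6.47, 6.21 and 6.18 in dorsal pieces, 6.81, 6.89 and 6.70 in intermediate pieces and 7.49, 7.83 and 7.68 in ventral pieces. Its regions did not overlap. The dorsal minus ventral difference of Fzd7 was -1.38 ± 0.12 (2.6-fold, adjusted p = 0.000665) and the intermediate minus ventral one -0.86 ± 0.12 (1.82-fold, adjusted p = 0.00381). Its dorsal minus intermediate difference was -0.51 ± 0.12 (adjusted p = 0.0339). This call was lost without animal 2 or 3 (adjusted p = 0.185 and 0.221), without the filter on dim genes (0.0598), in a fit of only those regions' arrays (0.0676), and without the dorsal or ventral array of animal 2 or 3 or any intermediate array (between 0.0561 and 0.124). The intermediate minus ventral call was lost without animal 3 (0.0749).

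Fzd9, whose human counterpart lies in the Williams syndrome deletion, had 6.12, 6.31 and 6.31 in dorsal pieces, 7.08 in all 3 intermediate pieces and 7.47, 7.40 and 7.37 in ventral pieces. The regions did not overlap, and the identical intermediate values can make the spread look smaller than it was. Dorsal was lower than intermediate, with a difference of -0.83 ± 0.06 (1.78-fold, adjusted p = 0.00124) and lower than ventral, with a difference of -1.17 ± 0.06 (2.25-fold, adjusted p = 0.000153). Intermediate was lower than ventral, with a difference of -0.34 ± 0.06 (adjusted p = 0.00858), a call lost without animal 2 or 3 (0.0827 and 0.0738).

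Fzd1, of the same receptor subgroup as Fzd2 and Fzd7, had 8.72, 8.72 and 8.88 in dorsal pieces, 9.21 in all 3 intermediate pieces and 9.48, 9.57 and 9.53 in ventral pieces. Its regions did not overlap either, and as for Fzd9 the identical intermediate values can make the spread look smaller than it was. Dorsal was lower than ventral, with a difference of -0.76 ± 0.05 (adjusted p = 0.000221) and lower than intermediate, with a difference of -0.43 ± 0.05 (adjusted p = 0.00322), and intermediate was lower than ventral, with a difference of -0.32 ± 0.05 (adjusted p = 0.00385). Both calls against intermediate were lost without animal 1 (0.0667 against dorsal and 0.0525 against ventral). Fzd2 was lower in dorsal than in ventral, with a difference of -0.997 ± 0.21 (2-fold, adjusted p = 0.0148), and its second probe set also differed by -0.996 (adjusted p = 0.0226 over all probe sets tested). The Fzd2 call was lost without animal 1 or 2 (0.111 and 0.0847), without the ventral array of animal 1 (0.062) and in a fit of only those regions' arrays (0.0789).

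Fzd6, which orients hairs in mouse skin, had 8.12, 7.54 and 8.01 in dorsal pieces, 8.27, 8.30 and 8.27 in intermediate pieces and 9.03, 9.01 and 8.89 in ventral pieces. The dorsal array of animal 2 was the lowest of the 9, and no region overlapped another. Fzd6 was lower in dorsal than in ventral, with a difference of -1.09 ± 0.14 (2.12-fold, adjusted p = 0.00264). Dorsal and intermediate differed by -0.39 ± 0.14 (adjusted p = 0.109). Intermediate was lower than ventral, with a difference of -0.69 ± 0.14 (adjusted p = 0.0139). That last call was lost without animal 1 or 3 (0.108 for each) and without the intermediate array of animal 1 or 3 or the ventral array of animal 2 (between 0.0568 and 0.0637).

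Fzd3, known for guiding axons of the major tracts, was the Frizzled that was higher in dorsal. It had 11.61, 11.77 and 11.52 in dorsal pieces, 10.54, 10.65 and 10.46 in intermediate pieces and 10.57, 10.64 and 10.53 in ventral pieces. Intermediate and ventral overlapped and dorsal stood above both. Dorsal exceeded intermediate by 1.08 ± 0.03 (2.12-fold, adjusted p = 0.000169) and ventral by 1.05 ± 0.03 (2.08-fold, adjusted p = 3.99e-05), in 3 of 3 animals each. The difference between intermediate and ventral was -0.03 ± 0.03 (adjusted p = 0.453). Dimmer Fzd3 probe sets showed differences of at most 0.02 and were not called.

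The 250 bases before the RefSeq start of 4 of these receptor genes (GRCm38.p6, 5′ to 3′ on the gene's strand) are printed because they are the receptors graded towards ventral and the receptor with the widest ventral excess. Capitals mark GGGCGG or its reverse complement CCGCCC, the GC box, and CTTTGA or its reverse complement TCAAAG, a TCF/LEF core. Both motifs were searched on both strands, and overlapping matches were counted.
Fzd5 (chr1:64737751-64738000, minus strand): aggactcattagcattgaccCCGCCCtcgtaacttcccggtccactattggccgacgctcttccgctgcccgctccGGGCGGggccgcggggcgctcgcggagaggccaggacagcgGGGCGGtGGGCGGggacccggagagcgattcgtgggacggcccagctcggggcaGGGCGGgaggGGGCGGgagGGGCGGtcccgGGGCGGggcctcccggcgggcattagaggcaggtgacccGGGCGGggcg
Fzd7 (chr1:59481897-59482146, plus strand): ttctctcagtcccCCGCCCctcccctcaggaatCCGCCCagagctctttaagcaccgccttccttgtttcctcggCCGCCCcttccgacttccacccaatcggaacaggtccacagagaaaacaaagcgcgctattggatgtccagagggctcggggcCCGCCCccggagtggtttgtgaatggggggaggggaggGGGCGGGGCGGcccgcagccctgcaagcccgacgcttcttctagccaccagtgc
Fzd9 (chr5:135251048-135251297, minus strand): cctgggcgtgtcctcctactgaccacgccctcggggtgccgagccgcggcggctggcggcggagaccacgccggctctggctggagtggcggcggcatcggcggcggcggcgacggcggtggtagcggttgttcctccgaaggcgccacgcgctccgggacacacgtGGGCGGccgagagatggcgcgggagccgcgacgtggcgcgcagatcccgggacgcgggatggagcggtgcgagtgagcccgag
Fzd1 (chr5:4758217-4758466, minus strand): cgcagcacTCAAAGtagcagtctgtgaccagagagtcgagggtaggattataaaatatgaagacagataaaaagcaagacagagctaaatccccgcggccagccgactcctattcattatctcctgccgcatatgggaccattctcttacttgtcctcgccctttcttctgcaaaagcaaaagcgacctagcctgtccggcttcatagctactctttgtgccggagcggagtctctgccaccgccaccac
The Fzd5 window held 9 GC boxes, that of Fzd7 held 6, that of Fzd9 held 1 and that of Fzd1 held none, while Fzd1 alone of these held a TCF/LEF core, 242 bases before the start. Of all 32851 RefSeq windows of this length, 32.7% held a GC box and 13.8% a TCF/LEF core. Of the 27 Wnt genes with a window, 21 held a GC box, and 4 held a TCF/LEF core (Dkk1, Fzd1, Wnt11 and Wnt5b). These are counts of genes, while the shares above are of windows. The median GC content of all windows was 52.4%, and the windows of Fzd5, Fzd7, Fzd9 and Fzd1 had 76.4%, 65.2%, 76.4% and 51.2%. A GC box is made only of G and C, and the part of base composition in these counts was not tested.

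Lrp6, the co-receptor that recruits Axin to the membrane, had 8.14, 7.82 and 8.08 in dorsal pieces, 8.14, 8.14 and 7.98 in intermediate pieces and 8.33, 8.40 and 8.46 in ventral pieces. The ventral arrays stood above the rest. Lrp6 was lower in dorsal than in ventral, with a difference of -0.39 ± 0.10 (1.31-fold, adjusted p = 0.0289), and intermediate differed from ventral by -0.31 ± 0.10 (adjusted p = 0.0612). The Lrp6 call was lost without animal 1, 2 or 3 (0.0868, 0.116 and 0.128), without the dorsal or ventral array of animal 2 or 3 or the intermediate array of animal 1 (between 0.0567 and 0.109), and in a fit of only those regions' arrays (0.0725). A second Lrp6 probe set differed by -0.16 (adjusted p = 0.321). Lrp5, the other co-receptor, was at the floor.

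Of the 9 secreted inhibitors 8 were tested, and 3 were higher in dorsal than in ventral with 0 lower. In dorsal pieces 1 was higher than in intermediate, and in intermediate pieces 1 was higher and 1 lower than in ventral. The inhibitors called either way were 37.5% for dorsal minus ventral, 12.5% for dorsal minus intermediate and 25% for intermediate minus ventral. Over all genes these shares were higher, at 52.8%, 30.1% and 48.2%. Wif1, which binds Wnt proteins outside the cell, had the largest regional difference of all 33 Wnt genes tested. It had 8.14, 7.10 and 7.43 in dorsal pieces, 3.47, 3.76 and 3.80 in intermediate pieces and 6.05, 5.58 and 4.94 in ventral pieces. The regions did not overlap, with intermediate lowest in each animal. Meningeal, microglia and Schwann cell markers were also lowest in intermediate, and their values are given with the marker lists. Dorsal exceeded intermediate by 3.88 ± 0.34, or 14.7-fold (adjusted p = 0.00207), and ventral by 2.04 ± 0.34, or 4.1-fold (adjusted p = 0.0063). Intermediate was lower than ventral, with a difference of -1.84 ± 0.34, or 3.59-fold (adjusted p = 0.00997). The dorsal minus ventral call was lost without animal 2 or 3 (adjusted p = 0.0503 and 0.0664), and the intermediate minus ventral call without animal 1, 2 or 3 (0.0607, 0.0779 and 0.0543).

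Sfrp1, which carries a Frizzled-like domain that binds Wnt proteins, was lowest in ventral. It had 8.60, 8.95 and 8.56 in dorsal pieces, 8.49, 8.48 and 8.64 in intermediate pieces and 7.11, 7.68 and 7.22 in ventral pieces. Dorsal and intermediate overlapped, and ventral stood below both. Dorsal exceeded ventral by 1.37 ± 0.14 (2.58-fold, adjusted p = 0.00113) and intermediate exceeded ventral by 1.20 ± 0.14 (2.3-fold, adjusted p = 0.0022), the second call being lost without animal 1 (0.0509). Of the 4 other Sfrp1 probe sets, the 2 brighter ones were also higher in dorsal than in ventral, by 1.12 and 1.69 (adjusted p = 0.00399 and 0.00367 over all probe sets tested), and the 2 dimmest were not called.

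Dkk3, a Dickkopf family member without the clear antagonist action of Dkk1, was higher in dorsal than in ventral by 0.35 ± 0.07 (1.28-fold, adjusted p = 0.0114). That call was lost without animal 1 or 3 (0.129 and 0.0946) and without the ventral array of animal 1 (0.0519), and its second probe set differed by 0.03 (adjusted p = 0.84). Sfrp2 was well above the floor and near level: it averaged 8.47 ± 0.15 in dorsal, 8.50 ± 0.17 in intermediate and 8.48 ± 0.12 in ventral pieces (n = 3 arrays each). Its dorsal minus ventral difference was -0.01 ± 0.14 (adjusted p = 1). Sfrp4 and Sfrp5 ranged over 0.10 and 0.03 across the 9 arrays, and Dkk2 over 0.31.

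Axin2, a scaffold of the beta-catenin destruction complex and a common transcriptional target of the pathway, had 6.83, 6.69 and 6.86 in dorsal pieces, 6.42, 6.46 and 6.29 in intermediate pieces and 6.32, 6.52 and 6.45 in ventral pieces. All dorsal arrays stood above the 6 others, by a small step. Dorsal exceeded intermediate by 0.40 ± 0.09 (1.32-fold, adjusted p = 0.0251) and ventral by 0.36 ± 0.09 (1.29-fold, adjusted p = 0.0196). The dorsal minus intermediate call was lost without animal 1, 2 or 3 (0.138, 0.0597 and 0.199), in a fit of only those regions' arrays (0.0975), and without the dorsal array of animal 1 or 3, any intermediate array or the ventral array of animal 3 (between 0.0574 and 0.0956). The dorsal minus ventral call was lost without animal 1 or 3 (0.152 and 0.116), in a fit of only those regions' arrays (0.0687), and without the dorsal or ventral array of animal 1 or 3 (between 0.062 and 0.0776).

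The promoter windows of Wnt4, Wif1 and Axin2, a ligand, an inhibitor and the target that were higher in dorsal than in both other regions, are printed in the same way.
Wnt4 (chr4:137277385-137277634, plus strand): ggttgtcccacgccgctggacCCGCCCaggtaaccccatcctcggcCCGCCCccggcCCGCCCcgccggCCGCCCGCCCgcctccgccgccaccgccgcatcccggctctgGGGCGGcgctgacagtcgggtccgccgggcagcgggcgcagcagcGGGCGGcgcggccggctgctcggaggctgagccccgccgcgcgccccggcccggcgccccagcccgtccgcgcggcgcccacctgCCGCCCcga
Wif1 (chr10:121033754-121034003, plus strand): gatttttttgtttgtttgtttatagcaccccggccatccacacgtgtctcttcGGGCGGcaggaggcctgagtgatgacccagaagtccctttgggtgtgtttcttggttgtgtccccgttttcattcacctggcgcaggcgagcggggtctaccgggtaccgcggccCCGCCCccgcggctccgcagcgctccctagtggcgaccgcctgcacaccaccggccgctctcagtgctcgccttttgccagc
Axin2 (chr11:108920099-108920348, plus strand): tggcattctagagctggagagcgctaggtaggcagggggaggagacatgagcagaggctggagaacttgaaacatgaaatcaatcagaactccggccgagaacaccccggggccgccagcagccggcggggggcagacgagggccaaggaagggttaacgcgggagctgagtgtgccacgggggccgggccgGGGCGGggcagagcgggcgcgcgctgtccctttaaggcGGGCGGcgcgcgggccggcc
The Wnt4 window held 8 GC boxes and those of Wif1 and Axin2 held 2 each, and none of the 3 held a TCF/LEF core. Their GC content was 85.2% for Wnt4, 62.8% for Wif1 and 69.2% for Axin2.

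Other genes of the pathway were counted from a list of 68, of which 63 were tested. In dorsal pieces 24 were higher and 16 lower than in ventral, 13 were higher and 11 lower than in intermediate, and in intermediate pieces 15 were higher than in ventral and 16 lower. Over all genes tested, 24.5% were higher and 28.2% lower in dorsal than in ventral, 14.2% and 15.9% in dorsal than in intermediate, and 23.4% and 24.9% in intermediate than in ventral. The same shares are the background of each pathway list. Of 12 tested genes of Wnt release and extracellular or surface modulation, 4 were higher and 3 lower in dorsal than in ventral. Frzb, a secreted Frizzled-related protein, had 11.26, 11.30 and 11.04 in dorsal pieces, 7.88, 8.52 and 7.32 in intermediate pieces and 5.999, 6.27 and 6.20 in ventral pieces. Its regions did not overlap on this probe set, with dorsal highest and ventral lowest. The dorsal minus ventral difference of Frzb was 5.05 ± 0.24 (adjusted p = 0.00012) and the dorsal minus intermediate one 3.30 ± 0.24 (adjusted p = 0.0012). Its intermediate minus ventral difference was 1.75 ± 0.24 (adjusted p = 0.00343), a call lost without animal 1 (0.0661). On the Frzb probe set of highest variance, the dorsal minus intermediate difference was 5.21 and the intermediate minus ventral one 0.015 (adjusted p = 0.908 for the second). Wls, which carries Wnt proteins to the cell surface, was lower in dorsal than in ventral, with a difference of -1.28 ± 0.19 (adjusted p = 0.00375) and lower in intermediate than in ventral, with a difference of -1.30 ± 0.19 (adjusted p = 0.00409), the second call being lost without animal 1 or 3 (0.0509 and 0.0574). Sostdc1, a secreted antagonist of BMP and Wnt signals, had 9.78, 8.30 and 7.57 in dorsal pieces and 7.27, 6.90 and 6.37 in ventral pieces, a difference of 1.70 ± 0.44 (adjusted p = 0.0263). That call was lost without animal 2 or 3 (0.154 and 0.0814), on its probe set of highest variance (0.0839), in a fit of only those regions' arrays (0.0514), and without the dorsal or intermediate array of animal 2 or any ventral array (between 0.0553 and 0.0969).

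Of 19 genes of receptor turnover, alternative receptors and planar polarity, 7 were higher and 7 lower in dorsal than in ventral. Celsr3 and Prickle2, planar polarity proteins with roles in axon tracts, were higher in dorsal than in ventral by 2.04 ± 0.06 (adjusted p = 5.01e-05) and 1.56 ± 0.03 (adjusted p = 2.47e-05). Ror2, the Wnt5a receptor, was lower, with a difference of -1.19 ± 0.04 (adjusted p = 5.01e-05). Ror2 averaged 6.42 ± 0.07 in dorsal, 7.25 ± 0.01 in intermediate and 7.62 ± 0.09 in ventral pieces (n = 3 arrays each), with no overlap. Its dorsal minus ventral difference is opposite in sign to that of Wnt5a.

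Of 17 genes listed for the intracellular beta-catenin route, 9 were higher and 1 lower in dorsal than in ventral (24.5% and 28.2% over all genes). Between intermediate and ventral 8 were higher and 2 lower (23.4% and 24.9% over all genes). The dorsal minus ventral counts include 2 genes that act on the cytoskeleton: Daam1, among the 9 higher, and Daam2, the 1 lower. Btrc, part of the ubiquitin ligase that marks beta-catenin for breakdown, was higher in dorsal than in ventral by 0.92 ± 0.12 (adjusted p = 0.0025). The formins Daam1 and Daam2, which act between Dishevelled and the cytoskeleton, differed in sign: Daam1 was higher in dorsal than in ventral by 0.87 ± 0.07 (adjusted p = 0.000497) and Daam2 lower, with a difference of -1.35 ± 0.13 (adjusted p = 0.000948). Of 11 nuclear effectors, 3 were higher and 3 lower in dorsal than in ventral. The corepressors Tle2 and Tle3 were higher, by 2.37 ± 0.12 (adjusted p = 0.000154) and 0.80 ± 0.07 (adjusted p = 0.000639). Tcf7l2, a DNA-binding partner of beta-catenin also known from maturing oligodendrocytes, was lower, with a difference of -1.24 ± 0.11 (adjusted p = 0.000807).

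Of 11 common transcriptional targets, 1 was higher and 5 were lower in dorsal than in ventral, a list that shares members with the others. Tnfrsf19, a receptor of the TNF receptor family, was higher in dorsal than in intermediate by 0.75 ± 0.04 (adjusted p = 0.00073) and than in ventral by 0.36 ± 0.04 (adjusted p = 0.0018). Both of these were lost on its probe set of highest variance (0.437 and 0.26). Ccnd1, cyclin D1, was lower in dorsal than in ventral, with a difference of -0.62 ± 0.11 (adjusted p = 0.0068), a call lost without animal 2 or 3 (0.0752 and 0.0944). Lgr5, an R-spondin receptor, was lower in dorsal than in ventral, with a difference of -0.97 ± 0.22 (adjusted p = 0.0188). The Lgr5 call was lost without animal 2 or 3 (0.085 and 0.13), without the dorsal array of animal 2 or 3 (0.058 and 0.0728) and in a fit of only those regions' arrays (0.0929). Among the genes named here, the targets thus include one with the direction of Axin2 and others with the opposite direction.

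**Figure D3:**
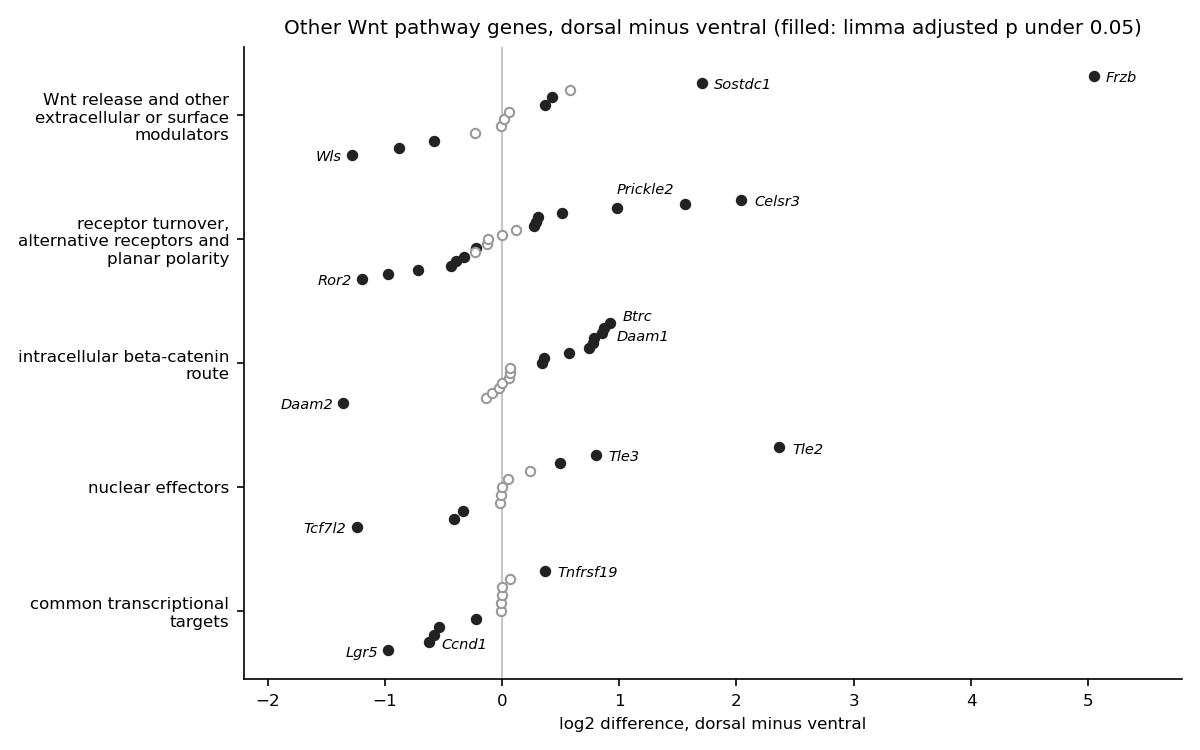
Log2 differences, dorsal minus ventral, of the other Wnt pathway genes, with a row for each list and a point for each tested gene. Filled points have a limma adjusted p under 0.05, and the genes named in the text are labelled. Frzb lies farthest right at 5.05 and Daam2 farthest left at -1.35.

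Neuronal markers were set beside the labelled regions. The marker lists were chosen with earlier results of these data known, so they are no independent check of the labels. All 8 dorsal horn neuron markers were higher in dorsal than in both intermediate and ventral, as were 9.99% of all genes tested. Their summed linear level ran from 4575 to 5600 in dorsal, 184 to 413 in intermediate and 64.9 to 65.3 in ventral pieces. They were thus highest in dorsal beside Wnt4, Wnt5a, Fzd3, Wif1, Axin2 and Frzb, and their part in those results was not tested. Of 8 motor neuron markers, 3 (Chat, Slc18a3 and Slc5a7) were at the floor on every array. Of the 5 tested, 3 were lower in dorsal than in ventral, where 28.2% of all genes were. The summed linear level of the motor neuron markers ran from 843 to 1062 in dorsal, 1071 to 1203 in intermediate and 2560 to 3081 in ventral pieces.

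Markers of other cell types moved with several of these results, and their part in the results was not tested. The shares of all genes given for the pathway lists are the background of these marker lists too. Beside the ventral-high Frizzleds, 8 of 8 astrocyte markers, 8 of 9 oligodendrocyte lineage markers and 11 of 12 endothelial and mural markers were lower in dorsal than in ventral. The summed level of the astrocyte markers ran from 70612 to 79087 in dorsal, 85661 to 89517 in intermediate and 124609 to 126996 in ventral pieces. That of the oligodendrocyte lineage ran from 96548 to 101540 in dorsal, 96553 to 108037 in intermediate and 135009 to 140398 in ventral pieces. For the endothelial and mural list the ranges were 8061 to 9479 in dorsal, 11010 to 11774 in intermediate and 16693 to 17767 in ventral pieces. Each of these 3 lists was thus highest in ventral, without overlap. Ependymal markers were lower in dorsal than in intermediate for 7 of 8 and lower than in ventral for 6 of 8, with sums of 23933 to 35015 in dorsal, 24890 to 27351 in intermediate and 40733 to 44660 in ventral pieces.

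Beside Sfrp1 and Celsr3, 5 of 6 pan-neuronal markers were higher in dorsal than in ventral and 6 of 6 higher in intermediate than in ventral. For dorsal against intermediate, 2 were higher and 3 lower. Their sum ran from 52476 to 58340 in dorsal, 55870 to 60282 in intermediate and 30505 to 31312 in ventral pieces. Celsr3 differed from the list there, being higher in dorsal than in intermediate by 0.52 ± 0.06 (adjusted p = 0.00493 by limma). That Celsr3 call was lost without animal 3 (0.0784) and in a fit of only those regions' arrays (0.053). Fzd3 had another pattern, higher in dorsal than in both others and not called between intermediate and ventral.

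Beside Wif1 and Wnt5a, which were lowest in intermediate, 9 of 12 meningeal and fibroblast markers and 7 of 8 microglia markers were higher in dorsal than in intermediate. Against ventral, 10 of the meningeal and 7 of the microglia markers were lower in intermediate. The meningeal sum ran from 13336 to 28640 in dorsal, 3315 to 5063 in intermediate and 17961 to 24669 in ventral pieces. The microglia sum ran from 3970 to 4760 in dorsal, 2711 to 3231 in intermediate and 4734 to 5279 in ventral pieces. Of the Schwann cell and sensory ganglion markers, 4 were tested, 3 of them higher in dorsal than in intermediate and 4 lower in intermediate than in ventral, while Avil and Scn10a were at the floor on every array. Their sum ran from 4499 to 18352 in dorsal, 355 to 702 in intermediate and 7036 to 10325 in ventral pieces. The sums of these 3 lists were lowest in intermediate and overlapped between dorsal and ventral.

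**Figure D4:**
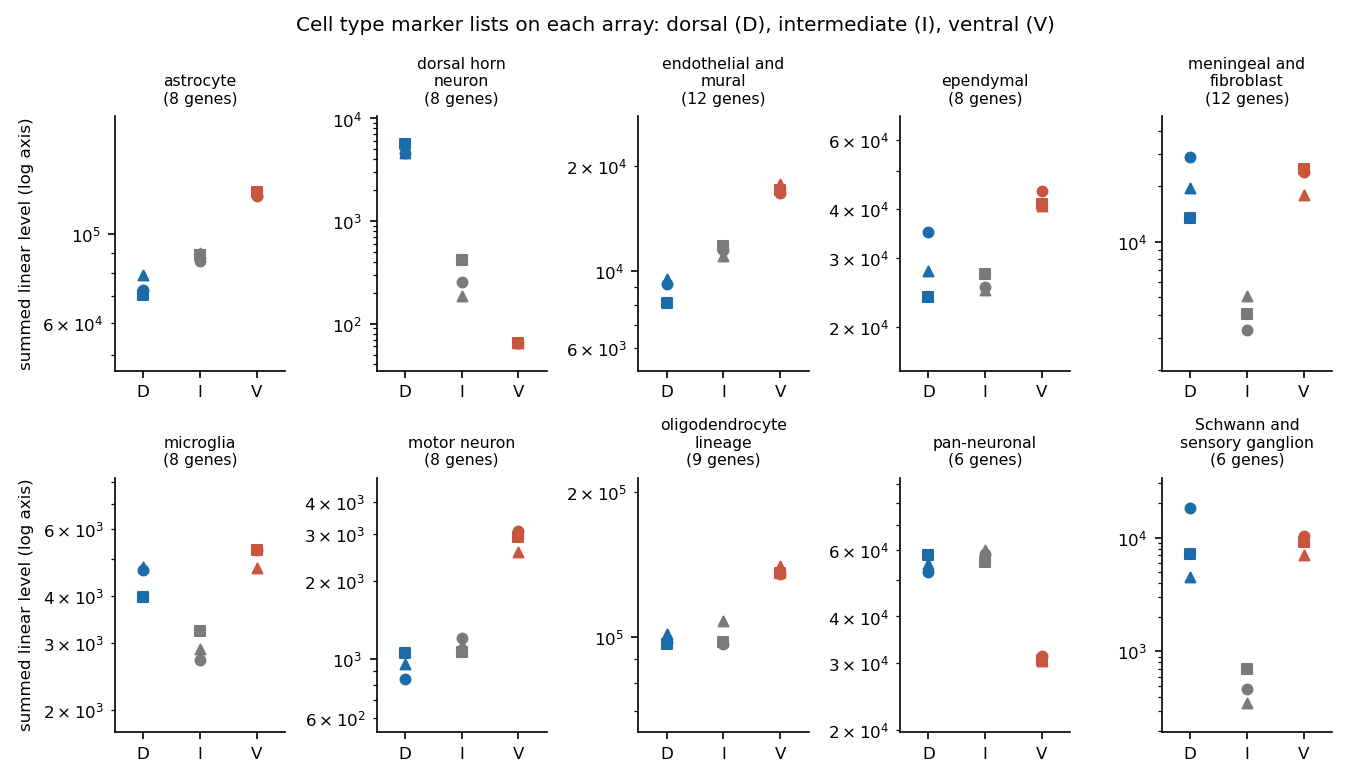
Summed linear level of each cell type marker list on each array, on logarithmic axes that differ between panels, with dorsal, intermediate and ventral pieces from left to right and a symbol per animal. Astrocyte, oligodendrocyte and vascular lists stand highest in ventral, meningeal, microglia and Schwann lists lowest in intermediate, and the dorsal horn list highest in dorsal.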

How the data were processed

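RNA was measured on 9 Affymetrix arrays, 1 per spinal cord piece, from 500 ng of total RNA labelled as cRNA, per the labels' protocols. The deposited table gives the authors' processed log2 values, read as log2 from their range; the scale, summarisation and normalisation are not given in the sources used here. Of 45037 probe sets, 34945 had 1 platform symbol, 932 had several and 9160 had none, and probe sets with several or none were not used. Each gene took its brightest single-symbol probe set, and genes below the 30th percentile of mean values were left out. All 41 Wnt genes matched a RefSeq gene by Entrez number.

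Regions were compared with limma 3.58.1 in R 4.3.3 (lmFit, eBayes, two-sided) over all 9 arrays, with Benjamini-Hochberg adjustment over all genes, 4 residual degrees of freedom and a prior of 0.749. The number of arrays limits the precision. The deposited values were loaded with data.table (version 1.17.8) and plotted with matplotlib 3.10.9 in Python 3.11.15, and the fit was tested on simulated data. Other probe sets were tested in a fit of all probe sets.

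The titles name the animal of each piece, so animal was a fixed block. Deviations from region means correlated between -0.07 and 0.25 for pieces of the same animal (mean 0.08, 9 pairs) and between -0.18 and 0.16 for different animals (mean -0.04, 18 pairs). Replicates are pieces of separate animals.

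Members described array by array were those called with a difference of at least 1, and the smallest p of each role. Wnt5a and Fzd1 were added after their values were seen. Up to 3 called genes with the largest difference were named per pathway list. Members and lists were chosen with earlier results of these data known. Alternatives were the fit without the block, array centring, other filters, probe set choices and priors, only the compared arrays, only genes with distinct values, and leaving out animals. Leaving out single arrays was added after seeing the data.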

Additional observations from a re-analysis of the deposited data

How the results depend on the processing

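Of the 35 pairwise calls of Wnt genes, 15 held under every alternative that gave a value: Wnt4 and Fzd3 for dorsal against both others, Fzd9 likewise, Wnt7a and Fzd5 for ventral against both others, and Fzd1, Fzd6, Fzd7 and Sfrp1 for dorsal minus ventral, with Wif1 for dorsal minus intermediate. The alternative of only genes with distinct values left out Wnt4, Wnt7a, Fzd1, Fzd6 and Fzd9, which have tied values, so it could not test their calls. Without the replicate block the counts were 9 for dorsal minus intermediate, 18 for dorsal minus ventral, 12 for intermediate minus ventral and 16 for the F test, against 8, 17, 10 and 16 with it. In the same order, the shares of all genes called were 31.7%, 54.3%, 49.1% and 59.9% without the block and 30.1%, 52.8%, 48.2% and 58% with it. Among only the 10 members with 9 distinct values above the floor, 5, 9, 6 and 9 were called, since fewer genes were tested. Of all genes with such values, 51.3%, 79.2%, 75.1% and 89.1% were called. Leaving out an animal or a single array gave 6 to 9, 11 to 18, 4 to 12 and 10 to 15 calls, each lowest, or among the lowest, without animal 3 (6, 11, 4 and 10). The shares of all genes called also fell without animal 3, to 10.5%, 37.5%, 30.1% and 36.1%. Some differences that were not called changed sign when an array or animal was left out, and the cause was not tested. Their ranges were -0.111 to 0.031 for Axin2 and -0.27 to 0.13 for Lgr5 (intermediate minus ventral), and, for dorsal minus intermediate, -0.16 to 0.049 for Lrp6, -0.0061 to 0.29 for Sfrp1, -0.18 to 0.058 for Btrc, -0.059 to 0.092 for Daam1, -0.0088 to 0.28 for Daam2, -0.19 to 0.053 for Tcf7l2 and -0.15 to 0.25 for Wls. Centring each array gave -0.046 for Wls dorsal minus intermediate, and the Tnfrsf19 probe set of highest variance gave 0.096 for intermediate minus ventral, where the brightest gave -0.39. A floor reading need not bound the level of a gene. Probe sets of Fzd1, Fzd3, Wnt5a and Axin2 were at the floor on all 9 arrays. Other probe sets of these genes averaged 9.17, 10.92, 9.19 and 6.54.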

Other observations

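Many probe sets carried identical values on several arrays (tolerance 1e-06). Of the 29 Wnt genes off the floor on all 9 arrays, 14 had at least 3 equal values, and in 14 of those 14 the shared value was the gene's median over the 9 arrays. Over all genes off the floor on all arrays, 3827 of 12832 (29.8%) had at least 3 equal values, and in 3763 of them (98.3%) the shared value was the median. Among the Wnt genes called between regions, Fzd1 (9.21), Fzd9 (7.08) and Wnt7b (5.58) had a single value on all 3 intermediate arrays.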
